A study of Sus scrofa with 8 samples.

Results

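Intramuscular adipocytes, the fat cells that lie between the fibres of a muscle, were followed in pig longissimus dorsi through 8 genes that mark mature fat cells. These were ADIPOQ, FABP4, PLIN1, LEP, CIDEC, CIDEA, PPARG and CEBPA. They were identified by gene symbol, and all 8 were found among the 23235 genes of the deposited table. The muscle, the long muscle of the back, came from Duroc x Landrace x Yorkshire piglets weaned at 28 days of age. A group of 6 piglets received melatonin, the hormone of darkness, by gavage at 5 mg per kg body weight for 23 days after 5 days of adaptation. The other 6 received saline alone, and all piglets ate the same basal diet. Poly(A) RNA was sequenced in 4 melatonin and 4 control libraries, each taken here to be a separate piglet.

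Fat cells store triglyceride in a large lipid droplet and release fatty acids and hormones from it. PPARG and CEBPA are the transcription factors that switch on and maintain the mature fat-cell programme, and the other members are among its classic targets. In skeletal muscle these cells form marbling fat, which arises from fibro-adipogenic progenitors between the fibres and is deposited late in the growth of the pig.

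Total counts ran from 53471667 to 60629098 per library, so a gene at 1 FPKM (a fragment rate scaled to transcript length and library size) is well above the limit of counting. Muscle markers were abundant in every library: ACTA1, skeletal alpha-actin, measured 49047 to 66373 FPKM after melatonin and 59375 to 74673 FPKM in controls. Melatonin libraries 1 and 3 stood apart in tendon genes, with a summed level over 6 genes of 953 and 380 FPKM. That sum was 31.6 and 20.9 FPKM in melatonin libraries 2 and 4 and 15.9 to 31.6 FPKM in controls. The labels give only replicate numbers, so p-values measure the spread between these samples, which may in part be technical. In bulk RNA, fewer fat cells and less RNA per fat cell cannot be told apart.

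The fat-cell genes divided the libraries in a way that only partly matched the treatment. They were high in melatonin libraries 1, 2 and 3 and in control library 3, and low in melatonin library 4 and control libraries 1, 2 and 4.

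Adiponectin, encoded by ADIPOQ, is a hormone made almost exclusively by fat cells that raises insulin sensitivity. ADIPOQ (ENSSSCG00000039103, chromosome 13, 124633685 to 124646646 in Sscrofa11.1) measured 77.6, 21.7, 50.7 and 1.03 FPKM in melatonin libraries 1 to 4, against 0.990, 1.57, 30.4 and 2.27 FPKM in control libraries 1 to 4. The groups overlapped: melatonin library 4 lay within the range of the 3 low controls, and control library 3 exceeded melatonin library 2. The means were 37.7 ± 33.5 FPKM after melatonin and 8.80 ± 14.4 FPKM in controls (SD, n = 4 each), so in each group the spread between animals was about as large as the mean or larger.

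Leptin, encoded by LEP, is the hormone by which fat stores signal to the brain, and it was at the limit of detection. LEP (ENSSSCG00000040464, chromosome 18, 20106868 to 20123323) had 52, 4, 0 and 0 counts in melatonin libraries 1 to 4, against 0, 0, 22 and 0 counts in control libraries 1 to 4. Counts above 0 occurred in 3 of the 4 libraries with high ADIPOQ, while melatonin library 3, with 50.7 FPKM of ADIPOQ, had none. A count of 0 allows up to 3 counts, or 0.0495 to 0.0559 CPM (counts scaled to library size) in these libraries (counting error only). LEP was the one member that missed the filter, a mean of at least 1 FPKM over the 8 libraries. Without a filter its log2 fold change was 1.07 ± 1.90 (SE, edgeR adjusted p = 0.878).

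**Figure D1:**
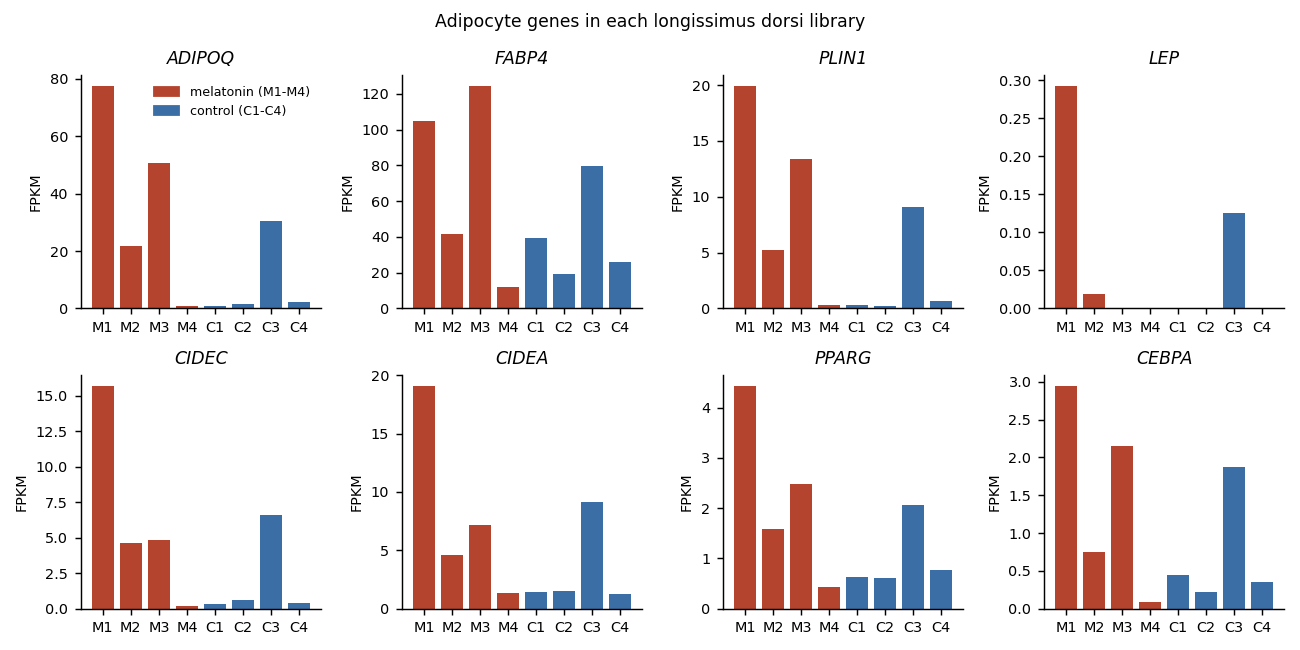
FPKM of the 8 adipocyte genes (one panel each, bars from 0) in melatonin libraries M1 to M4 (red) and control libraries C1 to C4 (blue). ADIPOQ reached 77.6, 21.7 and 50.7 FPKM in M1 to M3 and 30.4 FPKM in C3, and the other panels show the same 4 libraries high, except that LEP had no count in M3.

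The lipid droplet proteins gave the same division of the libraries. Perilipin 1, encoded by PLIN1, coats the fat-cell droplet and gates its lipases. PLIN1 (ENSSSCG00000001844, chromosome 7, 55236348 to 55250797) measured 19.9, 5.20, 13.4 and 0.343 FPKM after melatonin, against 0.326, 0.224, 9.04 and 0.670 FPKM in controls, in replicate order. Its means were 9.72 ± 8.69 FPKM after melatonin and 2.57 ± 4.32 FPKM in controls (SD, n = 4 each), and the low libraries of both groups lay below 1 FPKM.

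CIDEC and CIDEA are related proteins that join lipid droplets and let the larger droplet grow at the expense of the smaller. CIDEC, the form typical of white fat (ENSSSCG00000011557, chromosome 13, 66141839 to 66149703), measured 15.7, 4.63, 4.81 and 0.208 FPKM after melatonin, against 0.360, 0.596, 6.61 and 0.379 FPKM in controls. Control library 3 thus exceeded melatonin libraries 2 and 3. CIDEA, in the mouse a gene of brown and beige fat as well (ENSSSCG00000060225, chromosome 6, 97253074 to 97267405), measured 19.1, 4.57, 7.16 and 1.31 FPKM after melatonin, against 1.45, 1.50, 9.14 and 1.26 FPKM in controls. Its lowest 4 libraries stayed above 1 FPKM, where those of CIDEC did not reach 0.6 FPKM. CIDEC averaged 6.34 ± 6.59 FPKM after melatonin and 1.99 ± 3.08 FPKM in controls, and CIDEA 8.03 ± 7.74 FPKM after melatonin and 3.34 ± 3.87 FPKM in controls (SD, n = 4 each).

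FABP4, the fatty acid carrier of the fat-cell cytoplasm, was the most abundant member per length and had a high floor. FABP4 (ENSSSCG00000040681, chromosome 4, 55096404 to 55101896) measured 105, 41.5, 125 and 12.1 FPKM after melatonin, against 39.3, 19.5, 79.4 and 25.8 FPKM in controls. Melatonin library 2 and control library 1 lay side by side at 41.5 and 39.3 FPKM, although ADIPOQ measured 21.7 FPKM in the first and 0.990 FPKM in the second. Capillary endothelium also makes FABP4, and the 7 endothelial markers found summed to 48.7 to 66.0 FPKM after melatonin and 44.3 to 66.9 FPKM in controls, highest in control library 1. The part of endothelial cells in the FABP4 level was not tested. Its means were 70.8 ± 52.8 FPKM after melatonin and 41.0 ± 26.9 FPKM in controls (SD, n = 4 each).

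The transcription factors were low but moved with the hormones and droplet proteins. PPARG, the nuclear receptor required for fat-cell formation (ENSSSCG00000011579, chromosome 13, 68302322 to 68433944), measured 4.43, 1.58, 2.48 and 0.426 FPKM after melatonin, against 0.631, 0.605, 2.06 and 0.764 FPKM in controls. CEBPA, its partner in the mature cell (ENSSSCG00000002866, chromosome 6, 43083207 to 43085836), measured 2.94, 0.748, 2.16 and 0.0829 FPKM after melatonin, against 0.448, 0.222, 1.88 and 0.348 FPKM in controls. For both genes melatonin library 4 was the lowest of all 8 and control library 3 the highest control. PPARG averaged 2.23 ± 1.69 FPKM after melatonin and 1.02 ± 0.701 FPKM in controls, and CEBPA 1.48 ± 1.30 FPKM after melatonin and 0.724 ± 0.775 FPKM in controls (SD, n = 4 each).

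Melatonin was compared with saline over all genes with edgeR's quasi-likelihood test on counts. Each of the 7 members tested had a positive log2 fold change (melatonin over control), as did 4893 of all 9821 genes tested. The median was 1.09 for the members against -0.0014 for all genes tested. None passed the test: 0 of 7 had an adjusted p under 0.05, as did 0 of the 9821 genes (0%), and 0 of 7 had an unadjusted p under 0.05. At that unadjusted threshold 655 genes were higher after melatonin (6.67%) and 377 lower (3.84%). DESeq2 called 65 genes (0.662%), none of them a member, and limma on log2(FPKM + 1) called 0. ADIPOQ had the largest fold among members, 1.92 ± 1.23 (SE) on the log2 scale or 3.79-fold (edgeR adjusted p = 0.576). PLIN1 followed at 1.75 ± 1.24 (edgeR adjusted p = 0.603), CIDEC at 1.50 ± 1.14 (edgeR adjusted p = 0.625) and CIDEA at 1.09 ± 0.80 (edgeR adjusted p = 0.610). PPARG had the smallest p of the members, with 0.97 ± 0.58 (edgeR unadjusted p = 0.128, adjusted p = 0.557). CEBPA measured 0.84 ± 0.86 and FABP4 0.62 ± 0.58. In FPKM the groups overlapped for 7 of 7. The share of all genes that overlap was not counted, so this cannot be read as a trait of the members.

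The size of these folds rested on single libraries. Without melatonin library 1, the log2 fold change was 0.64 ± 1.15 for CIDEC, 0.31 ± 0.75 for CIDEA, 0.47 ± 0.56 for PPARG and 1.36 ± 1.29 for ADIPOQ. Without control library 3, the log2 fold change was 4.31 ± 1.09 for ADIPOQ, 4.36 ± 1.07 for PLIN1, 3.57 ± 1.05 for CIDEC and 2.29 ± 0.69 for CIDEA. In that fit 5 of 7 members, these 4 and PPARG, had an unadjusted p under 0.05, against 5.2% of all genes in the upward direction. An adjusted p under 0.05 was reached by 0 of 7 and by 0% of all genes (smallest edgeR adjusted p of a member = 0.584). Control library 3 was the highest control for each member tested, so leaving it out was bound to raise their folds. The members also moved together, so the 5 cannot be set against the share of all genes. Without melatonin library 4, PPARG was the one member with an unadjusted p under 0.05, against 11.1% of all genes in the upward direction. That library was the lowest of its group for each member tested, so its removal was likewise bound to raise the folds. Melatonin libraries 1 and 3, the libraries high in tendon genes, also had the highest sums of the 8 members, 245 and 205 FPKM. Leaving them out was therefore bound to lower the folds of the members. Without them the fold of ADIPOQ fell to 0.48 ± 1.44 and that of PLIN1 to 0.23 ± 1.46. FABP4 (-0.50), CIDEA (-0.065) and CEBPA (-0.69) changed sign. In that fit 0 of 7 members had an unadjusted p under 0.05, against 2.81% of all genes in the upward direction. Control library 3 had high fat-cell genes with a tendon sum of 15.9 FPKM, the lowest of the 8 libraries. The part of tendon tissue in the fat-cell values was not tested.

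**Figure D2:**
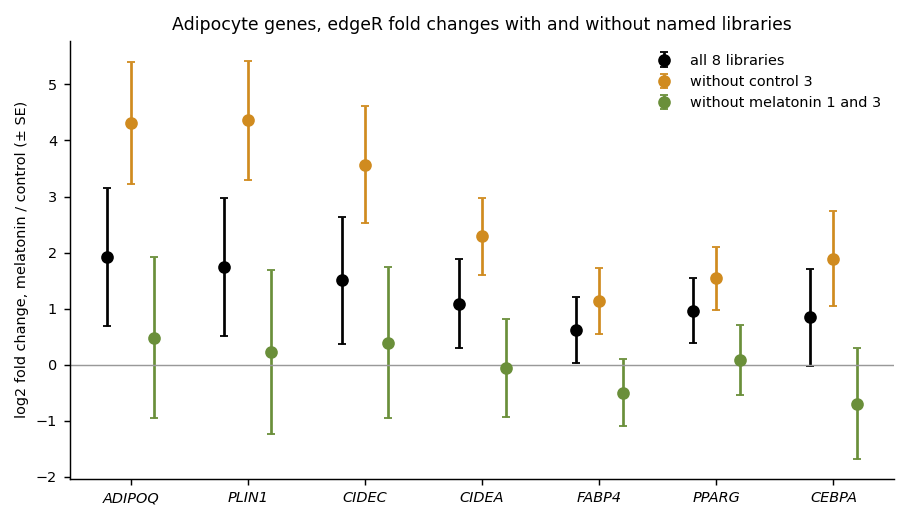
Log2 fold change of each tested member, melatonin over control, from edgeR (points) with its SE (bars), with all 8 libraries (black), without control library 3 (orange) and without melatonin libraries 1 and 3 (green). The value of ADIPOQ is 1.92 with all libraries, 4.31 without control 3 and 0.48 without melatonin 1 and 3.

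The members differed in how far they ranged over the 8 libraries. The highest library exceeded the lowest 89.2-fold for PLIN1, 78.3-fold for ADIPOQ and 75.6-fold for CIDEC, but 35.5-fold for CEBPA, 15.2-fold for CIDEA and 10.4-fold and 10.3-fold for PPARG and FABP4. The lowest values behind the widest ranges rested on few counts: 38 for PLIN1 in control library 2, and 18 for CIDEC and 14 for CEBPA in melatonin library 4. In every library FABP4 was the most abundant of the 8 per length and LEP the least. ADIPOQ was second in 6 of 8 libraries, PPARG exceeded CEBPA in 8 of 8 and CIDEA exceeded CIDEC in 7 of 8. PLIN1 exceeded CIDEC in 6 of 8 and CIDEA exceeded PLIN1 in 5 of 8, so these genes changed places between libraries.

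Each gene was also set against ADIPOQ of the same library. A gene with the same high libraries but a smaller range gives a lower ratio where ADIPOQ is high. The ratios thus largely restate the ranges above, and they cannot tell a constant floor from a smaller response. PLIN1 was 0.257, 0.240, 0.265 and 0.333 of the ADIPOQ level in melatonin libraries 1 to 4 and 0.330, 0.143, 0.298 and 0.295 of it in control libraries 1 to 4. That ratio varied 2.33-fold while each of the genes varied far more, and the lowest ratio, in control library 2, came from the library with the fewest PLIN1 counts, 38. The CIDEC ratio varied 4.0-fold, from 0.0949 in melatonin library 3 to 0.380 in control library 2. The FABP4 ratio varied 29.2-fold: it was 1.36, 1.91, 2.46 and 11.8 in melatonin libraries and 39.6, 12.4, 2.62 and 11.3 in controls, lowest where ADIPOQ was high. CEBPA, PPARG and CIDEA followed FABP4 in this, with ratios that varied 13.1-fold, 13.0-fold and 10.4-fold. The width for CEBPA rested on control library 1, at 0.452, and its other ratios ran from 0.0345 to 0.153. FABP4, PPARG and CIDEA therefore kept more of their level than PLIN1 and CIDEC did in the libraries low in ADIPOQ. For CEBPA this was less clear, with a ratio of 0.0805 in melatonin library 4, near the 0.0619 of control library 3.

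**Figure D3:**
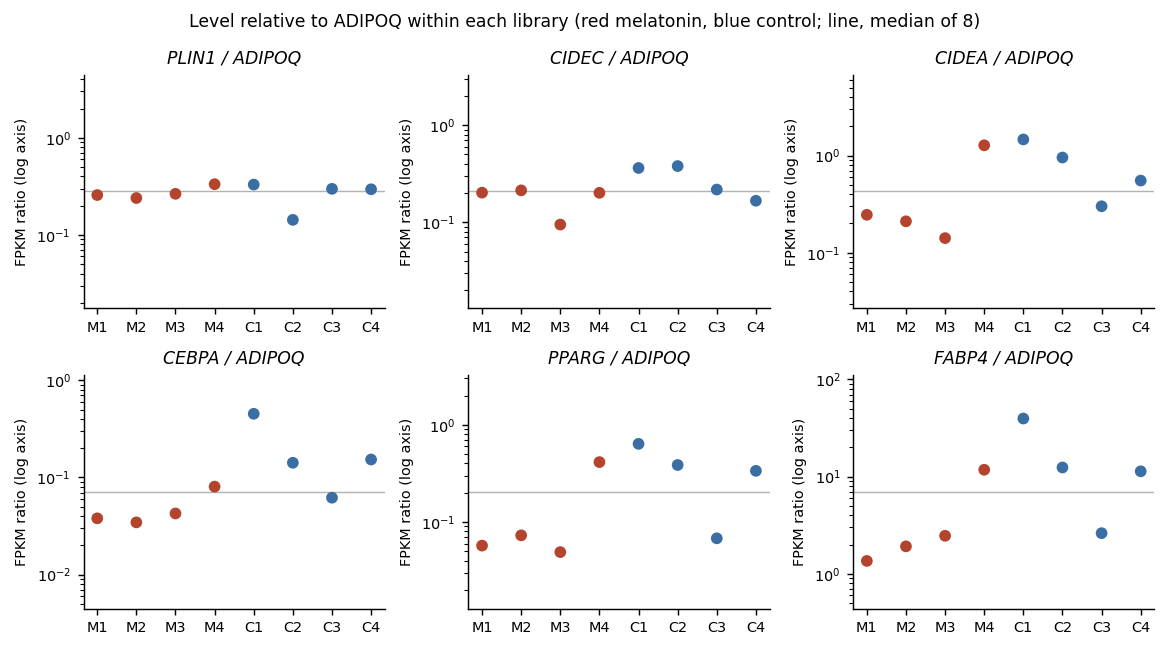
FPKM of 6 members divided by that of ADIPOQ in the same library (log axis, each panel spanning the same number of decades around the median line of the 8 libraries) for melatonin (M, red) and control (C, blue) libraries. PLIN1 stays between 0.143 and 0.333, while FABP4 ranges from 1.36 in M1 to 39.6 in C1.

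After these values were seen, genes were counted whose 4 highest libraries in FPKM were the same 4 as for ADIPOQ. All 6 other members tested had these 4 libraries highest, in whatever order, against 650 of 9821 genes (6.62%). For FABP4 this was close, with 41.5 FPKM in melatonin library 2 against 39.3 FPKM in control library 1. The count says which libraries were high, and these are the 4 named above, 3 of them from the melatonin group.

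Genes with a symbol were also ranked by how closely their profile over the 8 libraries followed a member, as the mean absolute difference in log2(FPKM + 0.1), each gene centred on its own mean. PLIN1 (0.28) and CIDEC (0.47) were among the 3 closest genes for ADIPOQ, against a median of 2.29 over all genes. The 8 closest genes outside the members were TRARG1 (0.25), SGK2 (0.58), PPP1R1B (0.67), PCK1 (0.72), DGAT2 (0.76), THRSP (0.80), ACKR4 (0.93) and ALDOC (0.99). TRARG1 measured 5.65, 1.96, 5.72 and 0.0495 FPKM after melatonin, against 0.0465, 0.108, 3.49 and 0.116 FPKM in controls. For FABP4 the closest were MGST1 (0.25), PRKAR2B (0.29), LPL (0.32), SNORD93 (0.34), APOE (0.36), LY96 (0.37), NDRG1 (0.38) and RETSAT (0.39), against a median of 0.87. Among members, CEBPA (0.28), PPARG (0.39) and CIDEA (0.60) were nearer to FABP4 than that median, and CIDEC (1.05), PLIN1 (1.33) and ADIPOQ (1.44) were farther from it. The distance was not scaled, so it counts the size of a gene's swings as well as which libraries were high. ADIPOQ and FABP4 had the same 4 highest libraries and still lay 1.44 apart. Adding 0.1 also narrows the swing of CEBPA, which measured 0.0829 FPKM in melatonin library 4. These are distances over 8 libraries that share the same differences in makeup, and they carry no test.

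Genes tied to the wider fat-cell programme were read from 7 further lists, with 59 past the filter. Bulk muscle RNA does not show which cells made these transcripts, so the list medians are not readings of fat cells or precursors alone. None of the 59 passed the adjusted test in edgeR. DESeq2 called 2 of the 59, CEBPD (1.91 ± 0.53 on the log2 scale, DESeq2 adjusted p = 0.0476) and the precursor gene PI16 (1.12 ± 0.28, DESeq2 adjusted p = 0.0250). Over all genes it called 0.662%. Without melatonin library 4, edgeR called KLF5 (1.41 ± 0.19, edgeR adjusted p = 0.0461), among the 15 genes called in that fit over all 9821. In 12 of the 59 (20.3%) the 4 highest libraries were those of ADIPOQ, against 6.62% of all genes. Among other transcription factors of adipogenesis, 11 were tested, with a median log2 fold change of 0.15. CEBPD, which acts early in fat-cell formation, measured 13.2, 9.29, 24.8 and 1.96 FPKM after melatonin, against 3.92, 3.01, 3.23 and 1.23 FPKM in controls. It was thus high in melatonin libraries 1 to 3 but, unlike ADIPOQ, not in control library 3. CEBPD, KLF5 and KLF15, further regulators of this step, had an unadjusted p under 0.05 and an edgeR adjusted p of 0.440, 0.440 and 0.461 (the KLF genes were chosen after their values were seen). These were 3 of the 11 tested, against 6.67% of all genes in the upward direction. RXRA, the partner with which PPARG binds DNA, measured 18.9 to 21.0 FPKM after melatonin and 15.9 to 29.5 FPKM in controls, with STAT5A at 6.14 to 7.81 FPKM after melatonin and 6.09 to 13.5 FPKM in controls and the oxysterol receptor NR1H3 at 3.51 to 6.95 FPKM after melatonin and 2.50 to 7.81 FPKM in controls.

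Genes of triglyceride storage and release, 15 tested with a median of 0.22, differed in how far they ranged over the libraries. DGAT2, which adds the last fatty acid to triglyceride, measured 14.8, 1.36, 2.32 and 0.245 FPKM after melatonin, against 0.130, 0.284, 5.24 and 0.607 FPKM in controls. PCK1, which makes glycerol for triglyceride in fat, measured 3.05, 1.80, 10.6 and 0.00 FPKM after melatonin, against 0.107, 0.00, 1.24 and 0.0239 FPKM in controls. Those 2 genes shared the high libraries of ADIPOQ with a low floor. The 4 most abundant genes of the list had a narrower range, and of these PNPLA2 and PLIN4 had the same 4 highest libraries as ADIPOQ. LPL, the lipase that frees fatty acids from blood lipoproteins, measured 36.9, 16.5, 62.5 and 11.7 FPKM after melatonin, against 23.7, 9.32, 31.3 and 11.3 FPKM in controls. PNPLA2, the first lipase of triglyceride breakdown, measured 36.3 to 76.4 FPKM after melatonin and 39.9 to 57.5 FPKM in controls. PLIN4, a coat protein of droplets, measured 16.8 to 27.4 FPKM after melatonin and 19.3 to 27.3 FPKM in controls, and GPD1, which makes glycerol phosphate, 128 to 257 FPKM after melatonin and 209 to 284 FPKM in controls. ABHD5, an activator of PNPLA2 named after its value was seen, had the list's one unadjusted p under 0.05 (edgeR adjusted p = 0.473). That is 1 of 15 genes, against 6.67% of all genes in the upward direction.

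Fatty acid synthesis, 8 genes tested with a median of 0.15, gave 4 genes with the 4 high libraries of ADIPOQ, SCD, FASN, THRSP and ELOVL6 (THRSP is named for its profile, ELOVL6 after its value was seen). SCD, the desaturase that makes oleic acid, measured 5.33, 1.05, 0.991 and 0.360 FPKM after melatonin, against 0.530, 0.441, 7.29 and 0.453 FPKM in controls, so control library 3 was the highest of all. FASN, the fatty acid synthase, measured 9.76, 3.51, 4.91 and 2.15 FPKM after melatonin, against 1.79, 1.81, 8.14 and 2.21 FPKM in controls. ACLY, which supplies acetyl-CoA, measured 2.21 to 5.68 FPKM after melatonin and 2.65 to 3.43 FPKM in controls, and ME1, which supplies NADPH, 2.12 to 3.77 FPKM after melatonin and 2.02 to 5.07 FPKM in controls. None of the 8 had an unadjusted p under 0.05, against 6.67% of all genes in the upward and 3.84% in the downward direction.

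**Figure D4:**
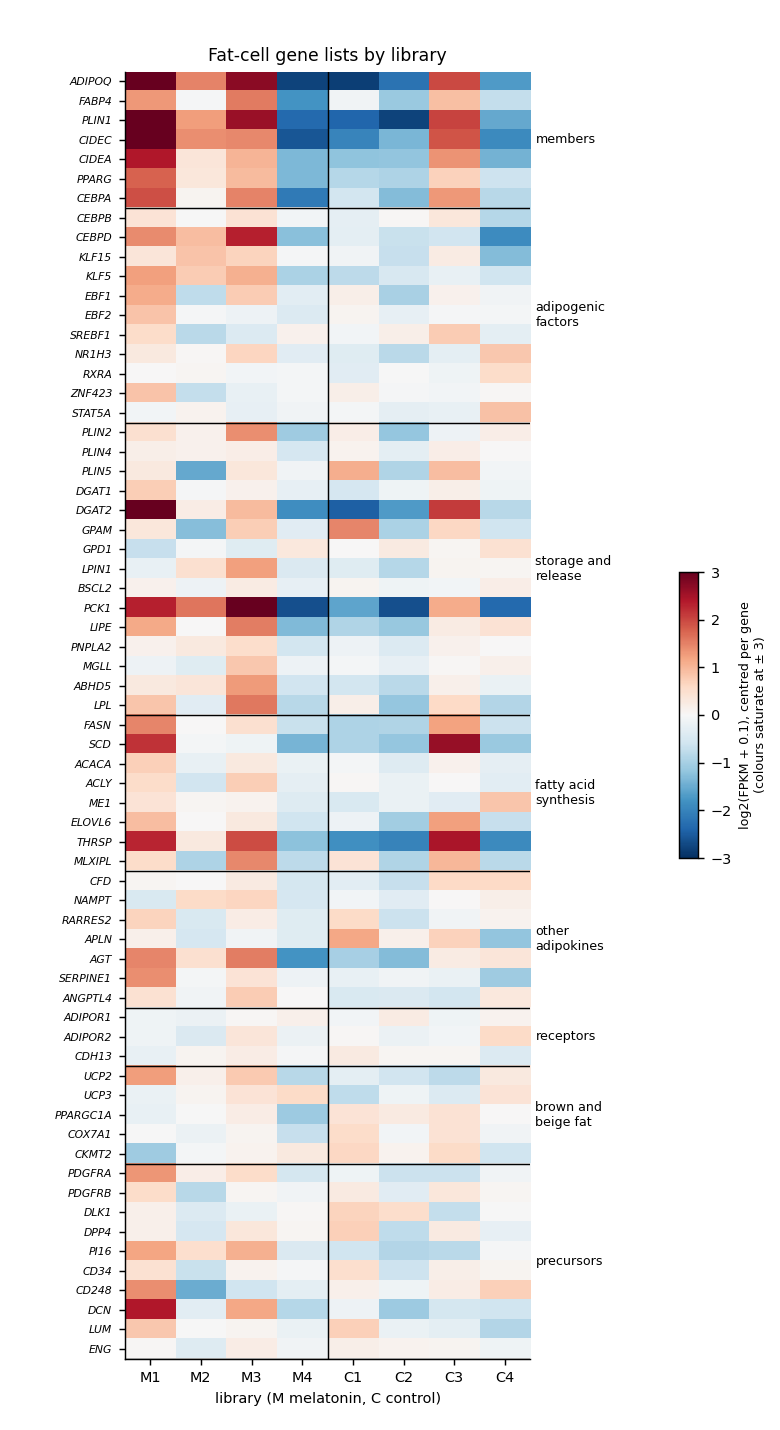
Log2(FPKM + 0.1) centred on each gene's own mean (colour, saturating at 3 either way) for the 7 tested members and 59 genes of 7 other fat-cell lists (rows, grouped by list) in melatonin libraries M1 to M4 and control libraries C1 to C4 (columns). Members, DGAT2, PCK1, SCD, FASN and THRSP are red in M1 and C3 and blue in M4, C1, C2 and C4 (FABP4 palest in C1), while the 3 receptor genes show little contrast.

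Among other adipokines, 7 were tested, with a median of 0.15 and none at an unadjusted p under 0.05 (all genes: 6.67% higher, 3.84% lower). CFD, the protease adipsin, measured 20.8 to 36.0 FPKM after melatonin and 18.4 to 45.0 FPKM in controls. Its highest libraries were control 3 at 44.8 FPKM and control 4 at 45.0 FPKM, of which control 3 was high and control 4 low in ADIPOQ. RARRES2, the chemokine chemerin, measured 12.9 to 28.5 FPKM after melatonin and 11.3 to 26.4 FPKM in controls, ANGPTL4, an inhibitor of LPL, 10.6 to 19.2 FPKM after melatonin and 7.74 to 14.3 FPKM in controls, and the NAD enzyme NAMPT 6.17 to 13.9 FPKM after melatonin and 6.91 to 9.87 FPKM in controls. Of the receptors, ADIPOR2 measured 30.4 to 52.8 FPKM after melatonin and 36.6 to 61.5 FPKM in controls. ADIPOR1 measured 22.3 to 27.7 FPKM after melatonin and 23.0 to 29.5 FPKM in controls. CDH13, which binds adiponectin at the cell surface, measured 18.5 to 25.3 FPKM after melatonin and 16.2 to 26.2 FPKM in controls. These 3 receptor genes, the ones past the filter, varied at most 2.02-fold over libraries in which ADIPOQ varied 78.3-fold. The leptin receptor gene LEPR stayed below the filter, at 0.565, 0.0225, 0.320 and 0 FPKM after melatonin and at most 0.0156 FPKM in controls.

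Of the genes of brown and beige fat, 5 were tested with a median of -0.38. None had the 4 high libraries of CIDEA and ADIPOQ, against 6.62% of all genes, and 5 genes are too few to differ from that share. COX7A1, a respiratory chain subunit that muscle shares with brown fat, measured 18.7, 16.7, 19.9 and 11.5 FPKM after melatonin, against 27.5, 17.8, 25.3 and 17.4 FPKM in controls, and missed the adjusted threshold (-0.49 ± 0.17, edgeR adjusted p = 0.442). COX7A1 and the coactivator gene PPARGC1A (edgeR adjusted p = 0.453, named after its value was seen) were the 2 with an unadjusted p under 0.05, both with negative folds. Of all genes, 3.84% were past that threshold in the downward direction. CKMT2, the mitochondrial creatine kinase of muscle, measured 37.3 to 96.2 FPKM after melatonin and 52.0 to 121 FPKM in controls, and the uncoupling protein genes UCP3 47.0 to 79.8 FPKM after melatonin and 31.8 to 71.8 FPKM in controls and UCP2 1.22 to 5.53 FPKM after melatonin and 1.27 to 2.80 FPKM in controls. UCP1 was not analysed here.

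The list of precursor genes, 10 tested, had a median of -0.14, and which cells made these transcripts was not tested. DCN, a matrix proteoglycan of these cells and of tendon, measured 750, 113, 318 and 78.9 FPKM after melatonin, against 127, 66.1, 98.5 and 93.4 FPKM in controls. Its highest libraries were melatonin 1 and 3, as for the tendon genes, and control library 3 was not raised. DCN, PI16 and PDGFRA had an unadjusted p under 0.05 and edgeR adjusted p values of 0.446, 0.440 and 0.444, with PI16 and PDGFRA named after their values were seen. These were 3 of 10 genes, against 6.67% of all genes in the upward direction. LUM measured 15.5 to 31.3 FPKM after melatonin and 9.65 to 29.5 FPKM in controls, CD34 8.52 to 18.8 FPKM after melatonin and 8.89 to 19.4 FPKM in controls, and ENG 10.2 to 15.7 FPKM after melatonin and 12.3 to 15.2 FPKM in controls. None of the 10 had the 4 high libraries of ADIPOQ, against 6.62% of all genes, and 10 genes are too few to differ from that share.

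Markers of other cell types were summed beside the fat-cell genes. The 8 members summed to 245, 80.0, 205 and 15.5 FPKM in melatonin libraries 1 to 4, against 43.5, 24.2, 139 and 31.4 FPKM in control libraries 1 to 4. Fibroblast and matrix genes, led by SPARC and COL1A2, summed to 10887 and 3198 FPKM in melatonin libraries 1 and 3, to 849 and 922 FPKM in melatonin libraries 2 and 4 and to 699 to 1295 FPKM in controls. All 6 tendon genes were found, led by FMOD and THBS4. Melatonin libraries 1 and 3 were thus high in both kinds of gene, melatonin library 2 and control library 3 in fat-cell genes without the tendon genes.

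Macrophage genes, led by C1QC and C1QA, summed to 55.7, 49.7, 73.5 and 17.4 FPKM after melatonin, against 47.0, 24.0, 19.9 and 50.6 FPKM in controls. Control library 3 was the lowest control here, where its fat-cell genes were the highest. Red blood cell genes, mostly HBB, summed to 37.8 to 99.5 FPKM after melatonin and 41.4 to 165 FPKM in controls, with control library 3 the highest. Muscle fibre genes were led by ACTA1 and CKM, with 8 of 10 found by symbol. They summed to 81572, 100963, 78735 and 101728 FPKM after melatonin, against 94134, 110337, 93264 and 98940 FPKM in controls. This sum was lowest in melatonin libraries 3 and 1 and control library 3, the libraries with the highest member sums. Control library 1 lay close to control library 3 in muscle genes, with a member sum of 43.5 against 139 FPKM. Melatonin library 2, with a member sum of 80.0 FPKM, did not have a low muscle sum. The smooth muscle list was led by DES, which muscle fibres also make, so its sum does not measure smooth muscle cells. CNN1, its next gene, measured 29.0 to 46.2 FPKM after melatonin and 16.4 to 51.1 FPKM in controls. Endothelial genes were led by PECAM1 and CDH5 and lymphocyte genes by PTPRC and CD2 (1.54 to 4.99 FPKM after melatonin and 1.84 to 3.53 FPKM in controls). The part of any of these in the fat-cell values was not tested.

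**Figure D5:**
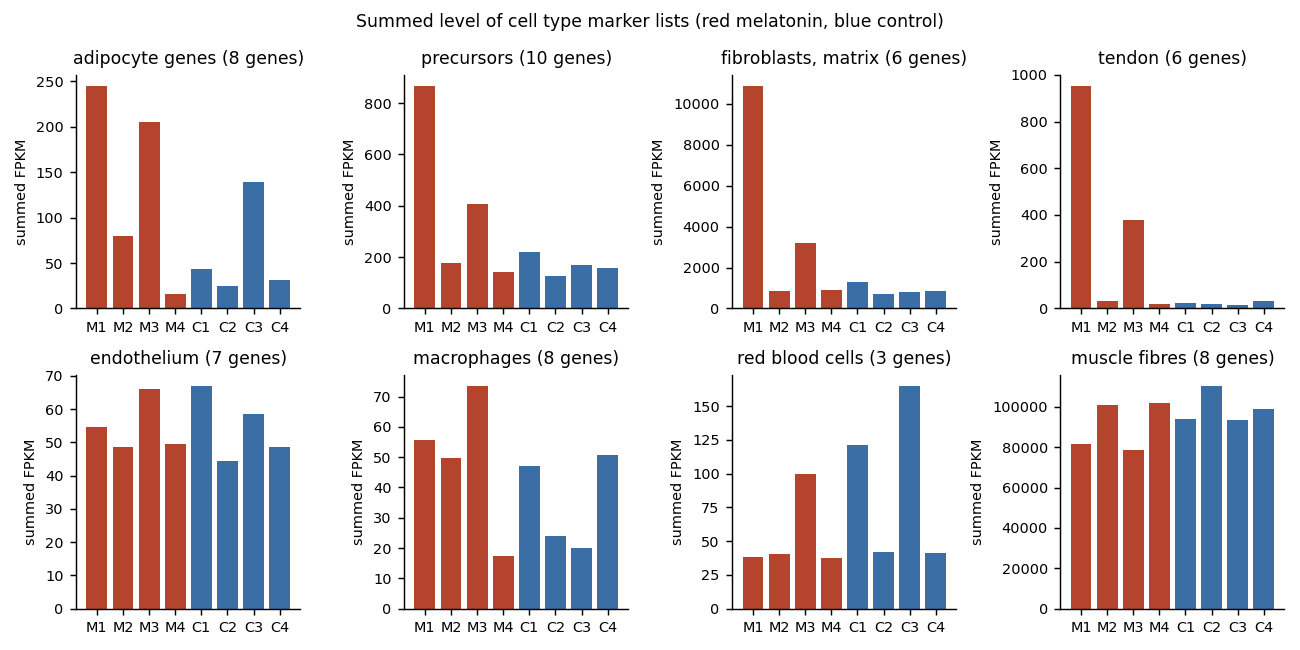
Summed FPKM of the adipocyte genes and of 7 marker lists (one panel each, number of genes found in the title, bars from 0) in melatonin (M, red) and control (C, blue) libraries. Adipocyte genes are high in M1, M2, M3 and C3, while tendon genes are high in M1 and M3 alone, at 953 and 380 FPKM.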

How the data were processed

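Longissimus dorsi RNA of 4 melatonin and 4 control libraries was read from a deposited table holding, per the file headers, a whole-number count and an FPKM value per gene and library. The submitters' processing notes list FastQC, StringTie, DESeq2 and the build Sscrofa11.1 with no role for each. Which aligner and annotation version were used is not given in the sources used here. Deposited FPKM values scaled the same counts by gene and library to within 0.234% in 3458 genes. No value column was left over (0), and gene names for 128 IDs came from a lookup table. No member overlapped another gene of the table, and no libraries were duplicates (smallest chi-square per degree of freedom 53.2).

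Genes with a mean of at least 1 FPKM (9821) were fitted in R 4.3.3 with edgeR 4.0.16, using TMM scaling, its legacy quasi-likelihood F test and Benjamini-Hochberg adjustment at 0.05. The SE is the log2 fold change divided by the root of F. TMM factors ran from 0.866 to 1.19 after melatonin and from 0.851 to 1.02 in controls. FPKM values were not rescaled. DESeq2 1.42.0 and limma 3.58.1 were alternatives. Members and lists were chosen with earlier results of these data known. Genes were named by rule: all members, the 4 most abundant of each fat-cell list, the 2 most abundant of other lists, and the 8 nearest profiles. Replicate numbers were not taken as pairs. The top-library count and the ratios to ADIPOQ were chosen after values were seen. One marker list is not reported here.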

Additional observations from a re-analysis of the deposited data

Results flagged for a closer look

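In groups of 4 libraries, a library was marked when its gap to the nearest other relative to the group's range exceeded Dixon's critical value for 4 samples. Chance gives this in about 1 of 20 groups if values are normally distributed and groups independent. Of 72 groups, for 36 genes, 15 libraries were marked, and 9 of these were control library 3 as the highest control. These 9 were ADIPOQ at 30.4, PLIN1 at 9.04, LEP at 0.126, CIDEC at 6.61, CIDEA at 9.14, PPARG at 2.06, CEBPA at 1.88, FASN at 8.14 and SCD at 7.29 FPKM. Such genes moved together, so the 9 marks are not independent and cannot be set against 1 of 20. LEP was above 0 in no other control, which gives a mark whatever its level. Melatonin library 1 was marked as the highest of its group for LEP at 0.293 FPKM and SCD at 5.33 FPKM. Melatonin library 4 was marked as the lowest of its group for PLIN4, at 16.8 FPKM. Control library 4 was marked as the highest control for STAT5A at 13.5, ME1 at 5.07 and ANGPTL4 at 14.3 FPKM.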

How the results depend on the processing

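Over 17 alternatives the members past the adjusted threshold stayed at 0. Members with an unadjusted p under 0.05 numbered 0 to 5 when a library was left out, 5 without control library 3 and 1 without melatonin library 4. Genes past the adjusted threshold numbered 65 in DESeq2, CEBPD and PI16 among them, and 0 to 15 when a library was left out. Folds of the 7 members kept their sign except without melatonin libraries 1 and 3 (FABP4 -0.50, CIDEA -0.065, CEBPA -0.69). There, other folds that changed sign were RXRA 0.061, GPD1 0.041, LPL -0.30, FASN -0.18, ACLY -0.21, ADIPOR1 0.058 and CDH13 0.11. In limma on log2(FPKM + 1), ME1 (0.058), SCD (0.10), RARRES2 (0.036) and CDH13 (0.014) changed sign, and on log2(FPKM + 0.1) the same genes (0.089, 0.29, 0.038 and 0.015). With a library left out, folds that changed sign ranged from -0.26 to 0.037 for RXRA, -0.41 to 0.020 for STAT5A, -0.18 to 0.0030 for PLIN4, -0.025 to 1.22 for FASN, -0.22 to 0.28 for ME1, -1.45 to 1.80 for SCD, -0.24 to 0.15 for RARRES2, -0.10 to 0.34 for NAMPT, -0.30 to 0.011 for ADIPOR1, -0.21 to 0.049 for CDH13 and -0.055 to 0.50 for LUM. None of these folds passed the test, and the cause was not tested.

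With the replicate number as a block, ME1 (0.019) and SCD (0.36) changed sign, genes past the adjusted threshold numbered 0 and members 0. Same-numbered libraries correlated at 0.181, 0.0658, 0.175 and -0.0231 in their deviations from group means, and 2 of 4 melatonin libraries matched their own number best, so the numbers were not treated as pairs. Low counts limit the low libraries: LEP had 0 counts in 5 libraries, which allows up to 3, and CEBPA had 14 and CIDEC 18 counts in melatonin library 4.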
